A study of Mus musculus with 6 samples.

Results

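The 10 genes described here encode β-catenin, the machinery that marks it for destruction, and the DNA-binding partners through which it acts in the nucleus. They are Ctnnb1, which encodes β-catenin itself, the scaffold genes Axin1, Axin2 and Apc, the kinase gene Gsk3b, the F-box genes Btrc and Fbxw11, and the TCF/LEF genes Tcf7, Lef1 and Tcf7l2. The genes were chosen by name and by role, with earlier results of these data known. All 10 were found among the 56748 Ensembl IDs counted, and all 10 passed the filter of at least 50 counts over the 6 libraries that left 21849 genes for testing.

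In cells without a Wnt signal, the Axin and APC scaffolds hold β-catenin beside casein kinase 1 and GSK3β, which phosphorylate it. The F-box proteins β-TrCP1 and β-TrCP2, encoded by Btrc and Fbxw11, bind the phosphorylated form and pass it to the SCF ubiquitin ligase. When Wnt ligands halt the complex, β-catenin enters the nucleus and activates genes bound by TCF/LEF proteins, among them Axin2, the usual transcriptional readout of the pathway. β-TrCP also recognises phosphorylated IκB proteins and the p100 precursor made from Nfkb2, so the same ligase serves both NF-κB and Wnt signaling. β-catenin in dendritic cells is known for its link to tolerance, in part through the retinoic acid enzyme Raldh2, the product of Aldh1a2. RNA levels do not report the phosphorylation or the amount of these proteins.

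RNA was sequenced from unstimulated bone marrow-derived dendritic cells (BMDCs) of C57BL/6 WT mice and of Nfkb2-/- mice, with 3 libraries for each genotype. Nfkb2 encodes p100 and its processed form p52, the noncanonical NF-κB subunit that pairs with RelB, and the genotype is given as Nfkb2-/- with no Cre or floxed allele named. Both genotypes were grown with 20 ng/mL GM-CSF for 5 days and then with 20 ng/mL GM-CSF and 10 ng/mL IL-4 for 4 days, and no stimulus was given (0 h). The Nfkb2-/- mice came from the institute's own animal facility, and their age and backcrossing are not given in the sources used here. The study calls the 3 libraries of a genotype independent biological replicates, while the labels tie none of them to a mouse or a culture, so the p-values measure the spread between these libraries. The comparison addressed which genes of BMDCs depend on Nfkb2.

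The libraries held 29863927 to 55623068 counts. Nfkb2 stood at 215, 154 and 355 CPM (counts scaled to a fixed library size, with the TMM method) in WT and at 44.8, 32.3 and 32.6 CPM in Nfkb2-/- libraries, lower in each of the latter as their label says. Aldh1a2 rose in Nfkb2-/- BMDCs, from 45.9, 94.4 and 92.4 CPM to 438, 467 and 342 CPM (log2 fold change 2.42, adjusted p = 0.0307, edgeR). Nfkb2-/- replicate 1 stood apart from the other 5 libraries: 47952 IDs had at least 1 count in it against 27692 to 33841 elsewhere, and it alone lay far out on the first principal component. WT replicate 3 held fewer macrophage transcripts, with a sum of 157 CPM over 10 markers against 619 to 1024 CPM in the others. Dendritic cell markers such as Itgax, H2-Aa, Cd74 and Zbtb46 were abundant in every library, with a sum of 6088 to 11017 CPM over 11 genes. Others of the list were lower, such as Flt3 (12.1 to 17.0 CPM) and Cd209a (3.51 to 26.9 CPM).

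Of the 10 genes, Btrc and Tcf7 fell in Nfkb2-/- BMDCs and none rose, by edgeR's quasi-likelihood test with a Benjamini-Hochberg adjusted p under 0.05 and a fold change over 1.2. In the background of all genes tested, 1.14% were called in either direction, 0.682% lower and 0.453% higher. The 8 genes that averaged 5 CPM or more all had a log2 fold change below 0, which held for 52.2% of all genes at that level. Of these 8, 6 had every Nfkb2-/- library below every WT library (Axin1, Apc, Btrc, Fbxw11, Tcf7 and Tcf7l2), against 17.7% of the genes at that level. Without Nfkb2-/- replicate 1 the same 6 genes were below, against 22.1% of genes, but edgeR then called 0 genes of any kind at the adjusted threshold (4088 had an unadjusted p under 0.05). The median log2 fold change over the 10 genes was -0.30, beside 0.08 over all genes tested and -0.02 over genes at that level.

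**Figure D1:**
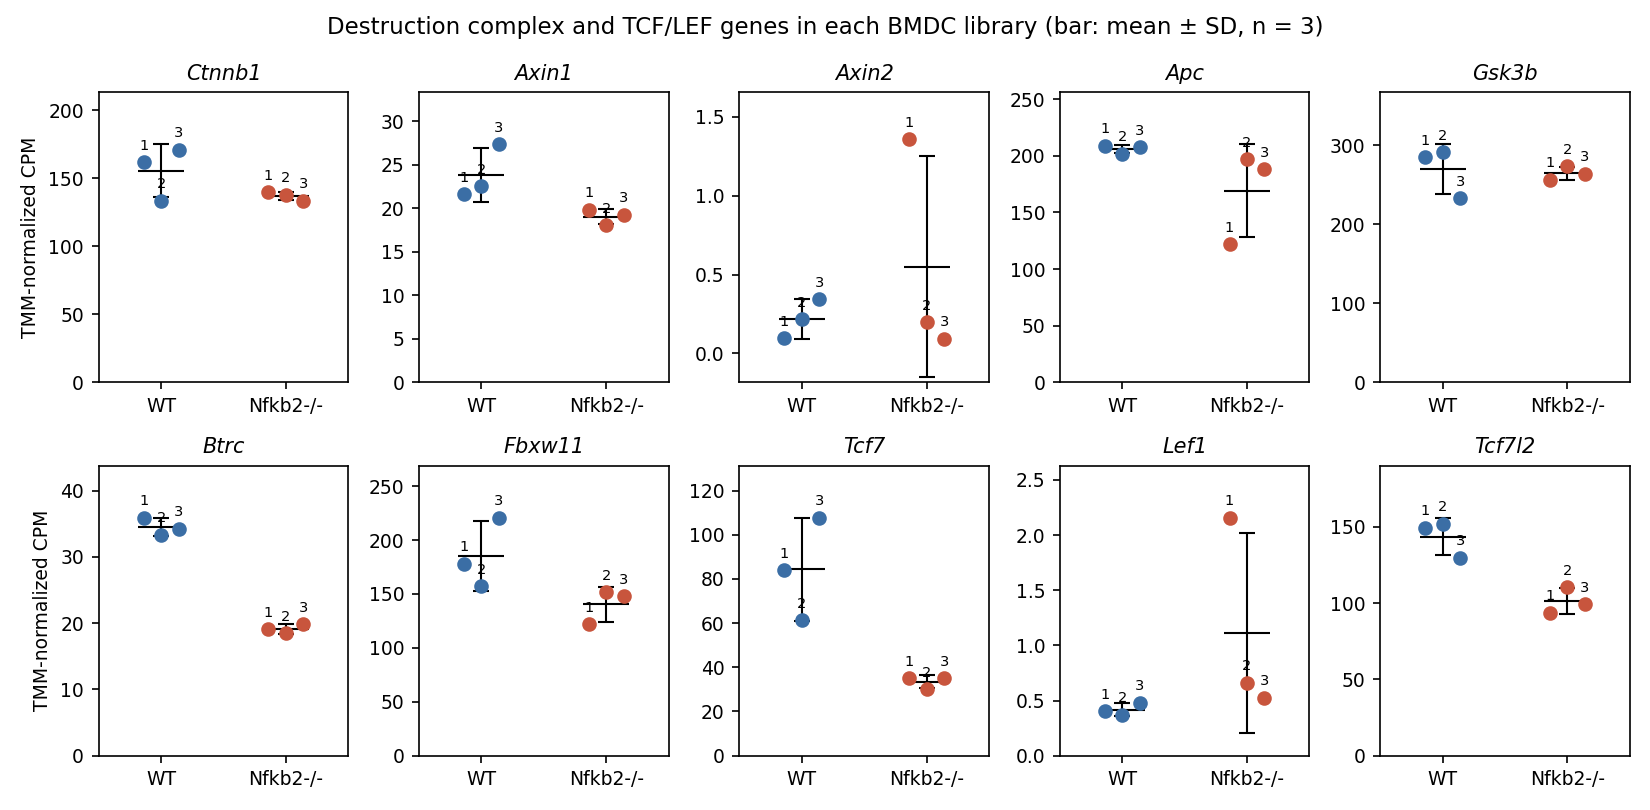
TMM-normalized CPM of each gene (vertical axis, linear, a separate scale for each gene) in the 3 WT (blue) and 3 Nfkb2-/- (red) libraries, numbered by replicate, with the mean and SD of each genotype as black bars. The genotypes are apart in Btrc (33.3 to 35.9 against 18.5 to 19.9 CPM) and in Tcf7 (61.4 to 108 against 30.0 to 35.1 CPM), while Axin2 and Lef1 lie near 0 except in Nfkb2-/- replicate 1.

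Ctnnb1 was abundant in both genotypes, at 162, 133 and 171 CPM in WT and 140, 138 and 134 CPM in Nfkb2-/- BMDCs. The groups overlapped, since WT replicate 2 lay below all 3 Nfkb2-/- libraries. On the log2 scale the fold change was -0.18 (SE 0.147), with a 95% interval from -0.53 to 0.16 (adjusted p = 0.571, edgeR). These libraries therefore held β-catenin mRNA in Nfkb2-/- BMDCs at 0.881 times the WT level, with an interval from 0.694 to 1.12 times. Exons of Ctnnb1 overlap those of Ulk4 on the opposite strand, which reached at most 4.49 CPM, and whether strand was used in counting is not given in the sources used here.

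Axin1, the scaffold that limits assembly of the complex, stood at 21.6, 22.5 and 27.3 CPM in WT and at 19.8, 18.0 and 19.2 CPM in Nfkb2-/- BMDCs. All 3 Nfkb2-/- libraries lay below the lowest WT library, the nearest by less than the range within WT. The mean was 23.8 ± 3.08 CPM in WT and 19.0 ± 0.901 CPM in Nfkb2-/- BMDCs (SD, n = 3), a log2 fold change of -0.32 with an interval from -0.69 to 0.04. Axin1 did not pass the test (unadjusted p = 0.0762, adjusted p = 0.356, edgeR), and DESeq2 gave an adjusted p of 0.263. An exact two-sided permutation test over the libraries gave p = 0.1, the smallest that 3 against 3 can give.

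Apc, the large scaffold that binds Axin and β-catenin, stood at 209, 202 and 208 CPM in WT and at 122, 197 and 188 CPM in Nfkb2-/- BMDCs. The genotypes did not overlap, but the difference came mainly from Nfkb2-/- replicate 1. Its log2 fold change was -0.29 (interval -0.76 to 0.19, adjusted p = 0.520, edgeR) and became -0.11 without that library.

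Axin2, which Wnt signaling induces as its own inhibitor, was close to the detection limit. Its raw counts were 4, 7 and 10 in WT and 46, 6 and 5 in Nfkb2-/- libraries, or 0.0949, 0.215 and 0.344 CPM against 1.36, 0.198 and 0.0935 CPM. Only Nfkb2-/- replicate 1 exceeded the WT range, and Axin2 had too few counts to be tested without it. A log2 fold change of 1.33 had an interval from -1.35 to 4.002 (adjusted p = 0.594, edgeR). A difference in Axin2 was not detectable at this depth. Exons of Axin2 share up to 105 bases with those of Gm11670 on the opposite strand, which was not among the genes tested.

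Gsk3b, the kinase, was the most abundant of the 10 genes by CPM, at 285, 291 and 233 CPM in WT and 256, 273 and 264 CPM in Nfkb2-/- BMDCs. The Nfkb2-/- libraries lay inside the WT range. The log2 fold change was -0.03 (interval -0.38 to 0.32, adjusted p = 0.945, edgeR), so that changes beyond 1.30-fold down or 1.25-fold up lay outside the interval. Its sign turned with the scaling, to 0.05 with total counts in place of TMM.

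Btrc, which encodes β-TrCP1, fell in Nfkb2-/- BMDCs. It stood at 35.9, 33.3 and 34.3 CPM in WT and at 19.1, 18.5 and 19.9 CPM in Nfkb2-/- BMDCs. The libraries of each genotype lay close together, at 34.5 ± 1.29 and 19.1 ± 0.707 CPM (SD, n = 3), and the gap between the genotypes exceeded the range within either. WT BMDCs held 1.80 times the Nfkb2-/- level, with an interval from 1.45 to 2.24 times (log2 fold change -0.85, SE 0.134, adjusted p = 0.0420, edgeR). DESeq2, which called 11.3% of the genes it tested, gave an adjusted p of 5.79e-07, and limma voom, which called 2.23%, gave 0.0313. The call was lost without WT replicate 1 (adjusted p = 0.202) and without Nfkb2-/- replicate 1 (0.0891), 2 (0.240) or 3 (0.197), and with total counts in place of TMM (0.0759), while the log2 fold change stayed between -0.93 and -0.76 over all 15 alternatives. Without WT replicate 1, and without each Nfkb2-/- library in turn, edgeR called 0 genes of any kind. Exons of Btrc overlap those of Gm6807 on the opposite strand, which reached at most 1.57 CPM.

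Fbxw11, which encodes β-TrCP2, stood at 178, 157 and 221 CPM in WT and at 122, 152 and 148 CPM in Nfkb2-/- BMDCs. The genotypes did not overlap, although WT replicate 2 and Nfkb2-/- replicate 2 were near each other. The log2 fold change was -0.40 (SE 0.179, interval -0.82 to 0.02), and Fbxw11 did not pass the test (adjusted p = 0.317, edgeR).

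Tcf7, which encodes TCF-1, a factor best known from T cells and innate lymphoid cells, showed the largest fall among the 8 genes above 5 CPM. It stood at 84.0, 61.4 and 108 CPM in WT and at 35.1, 30.0 and 35.1 CPM in Nfkb2-/- BMDCs. The WT libraries differed among themselves, yet the lowest of them held more than any Nfkb2-/- library. WT BMDCs held 2.52 times the Nfkb2-/- level, with an interval from 1.76 to 3.62 times (log2 fold change -1.34, SE 0.222, adjusted p = 0.0462, edgeR). DESeq2 gave an adjusted p of 1.17e-05 and limma voom 0.0331. The call was lost without WT replicate 1 (adjusted p = 0.202) or 3 (0.0503) and without Nfkb2-/- replicate 1 (0.0945), 2 (0.222) or 3 (0.190), while the log2 fold change stayed between -1.52 and -1.12 over all 15 alternatives. Of these fits, that without WT replicate 3 called 270 genes of any kind and the others called 0.

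Tcf7l2, which encodes TCF-4 of the Wnt pathway, stood at 149, 152 and 130 CPM in WT and at 93.7, 110 and 99.1 CPM in Nfkb2-/- BMDCs. All 3 Nfkb2-/- libraries lay below the WT range, and the gap was close to the range within WT. The log2 fold change was -0.51 (SE 0.143, interval -0.84 to -0.17), with an unadjusted p of 0.00882 and an adjusted p of 0.139 by edgeR. DESeq2 called Tcf7l2 lower with an adjusted p of 0.0152, and no other alternative did.

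Lef1, abundant in lymphocytes, was near the floor, with 17, 12 and 14 counts in WT and 73, 20 and 28 counts in Nfkb2-/- libraries. In CPM it stood at 0.403, 0.369 and 0.482 in WT and at 2.16, 0.659 and 0.524 in Nfkb2-/- BMDCs. Each Nfkb2-/- library lay above the WT libraries, as for 12.7% of all genes tested, with replicate 1 far above the other 2. The log2 fold change of 1.40 had an interval from -0.17 to 2.98 (adjusted p = 0.350, edgeR) and became 0.48 without Nfkb2-/- replicate 1. Exons of Lef1 share up to 1208 bases with those of Gm43352 on the opposite strand, which was not among the genes tested. Since the use of strand in counting is not given, some of these few counts may not be of Lef1.

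**Figure D2:**
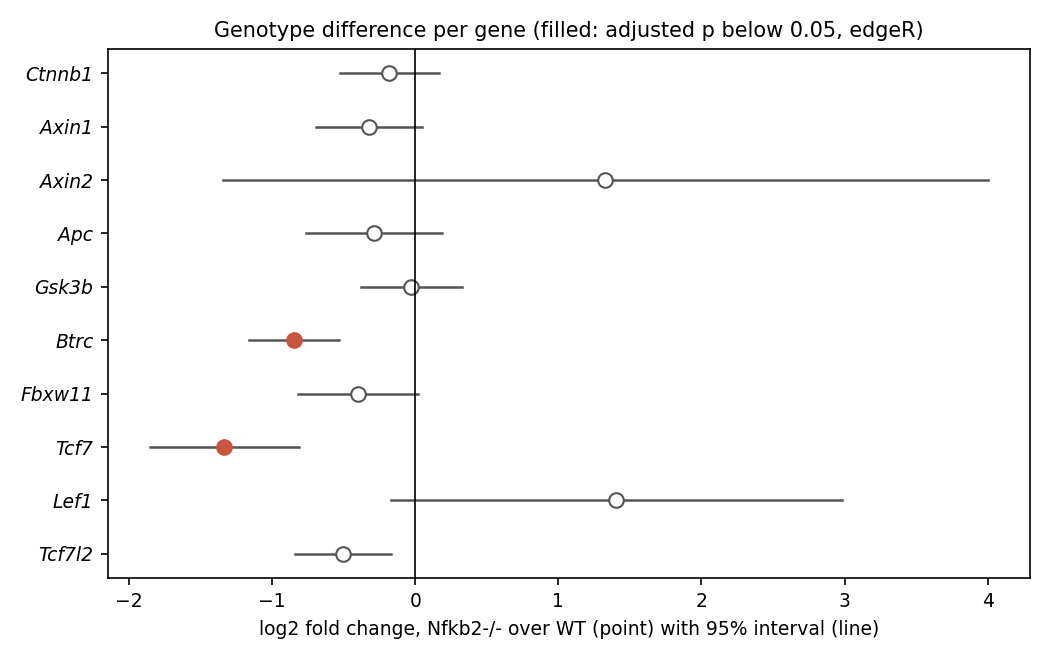
Log2 fold change of Nfkb2-/- over WT (horizontal axis) for the 10 genes, with the 95% interval of the edgeR fit as a line and filled points for genes that passed the test. The intervals of Btrc, Tcf7 and Tcf7l2 lie below 0, those of the other 7 genes span 0, and Axin2 and Lef1 have the widest.

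Levels of different genes were compared per exonic length, as TPM (the share of all transcripts, scaled to a fixed total). In WT BMDCs Fbxw11 was highest, at 143 ± 8.02 TPM (SD, n = 3), above the range of every other member. Tcf7 (107 ± 17.8 TPM), Ctnnb1 (101 ± 7.35 TPM) and Gsk3b (93.8 ± 20.9 TPM) followed, with ranges that overlapped from each to the next. Tcf7l2 (55.9 ± 10.8 TPM) and Apc (43.4 ± 4.58 TPM) also overlapped, and Axin1 (20.9 ± 1.07 TPM) and Btrc (6.92 ± 0.799 TPM) lay below them without overlap. Lef1 (0.160 TPM) and Axin2 (0.130 TPM) were last. In Nfkb2-/- BMDCs Gsk3b and Ctnnb1, whose ranges overlapped in both genotypes, changed places in the order, and Tcf7 lay at 43.2 ± 5.96 TPM, below the ranges of Gsk3b (91.0 ± 4.17 TPM) and Ctnnb1 (89.4 ± 8.03 TPM) and overlapping Tcf7l2 (38.9 ± 2.05 TPM).

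Among the TCF/LEF genes, Tcf7 and Tcf7l2 made up nearly all of the message. Their summed level with Lef1 and Tcf7l1 was 174, 154 and 169 TPM in WT and 92.7, 80.1 and 81.8 TPM in Nfkb2-/- BMDCs, a mean 1.95 times higher in WT. The sums did not overlap (exact two-sided permutation p = 0.1, the smallest possible with n = 3 per genotype). Tcf7 accounted for 64.2%, 56.4% and 71.8% of the sum in WT and for 52.8%, 46.3% and 53.2% in Nfkb2-/- libraries, again without overlap (permutation p = 0.1). The share of Tcf7l2 was 34.2%, 41.8% and 25.8% in WT and 42.3%, 51.0% and 44.9% in Nfkb2-/- libraries, where the lowest Nfkb2-/- share exceeded the highest WT share by less than the range of either. From CPM without division by length, the mean share of Tcf7l2 was 62.2% in WT and 73.1% in Nfkb2-/- libraries, with overlap (permutation p = 0.2). On that scale Tcf7 made up 36.0% in WT and 24.2% in Nfkb2-/- libraries, without overlap (permutation p = 0.1). Which of these genes held more of the sum in WT therefore depended on the division by length.

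Per exonic length, most of the β-TrCP message came from Fbxw11. Btrc made up 4.91%, 5.15% and 3.82% of the pair in WT and 3.85%, 3.02% and 3.33% in Nfkb2-/- libraries, which overlapped. By CPM without division by length its mean share was 15.9% in WT and 12.1% in Nfkb2-/- libraries, also with overlap. The sum of the pair was 151, 142 and 157 TPM in WT and 108, 117 and 115 TPM in Nfkb2-/- BMDCs, a mean 1.33 times higher in WT without overlap (exact permutation p = 0.1). Gsk3b made up 72.4 ± 6.62% of the GSK3 sum with its paralogue Gsk3a in WT and 75.0 ± 0.918% in Nfkb2-/- BMDCs (SD, n = 3), and Axin1 at least 95.4% of the Axin sum in every library. Neither share separated the genotypes.

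**Figure D3:**
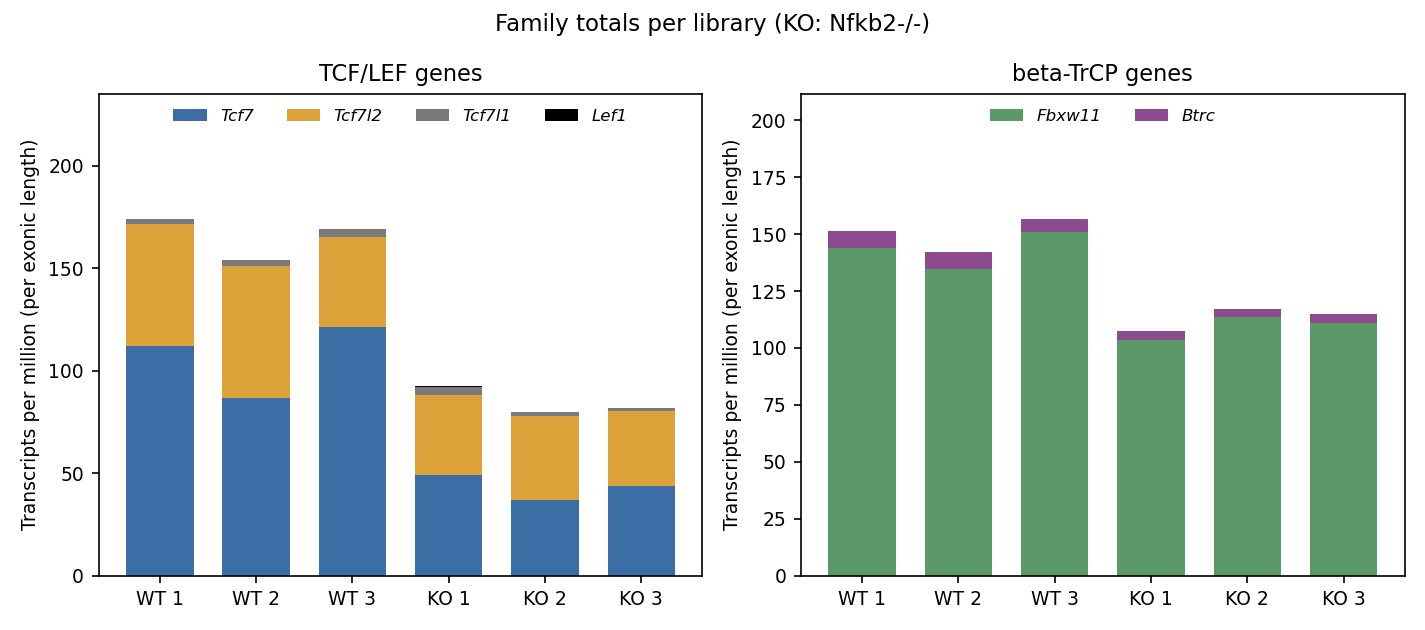
Stacked levels per exonic length (vertical axis, TPM) of the TCF/LEF genes (left) and the β-TrCP genes (right) in each WT and Nfkb2-/- (KO) library. The TCF/LEF bars reach 154 to 174 TPM in WT and 80.1 to 92.7 TPM in Nfkb2-/- libraries, with the difference mostly in Tcf7, and Btrc is the thin upper band of the β-TrCP bars.

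Btrc and Tcf7l2 lie on the same chromosome as Nfkb2. In GENCODE M21 (GRCm38), Nfkb2 spans chr19:46304320-46312385 and Btrc chr19:45363734-45530013, both on the plus strand and 0.774 Mb apart, while Tcf7l2 spans chr19:55741820-55933654, 9.43 Mb from Nfkb2. Within 1 Mb of Nfkb2, 3 of 49 other genes tested were called, or 6.12% against 1.14% of all genes: Btrc and Mfsd13a lower and Neurl1a higher. This comparison was added after seeing the data, and Btrc itself is among the 3. At an unadjusted p under 0.05 by edgeR there were 11 of the 49, against 17.1% of all genes. Within 10 Mb, 5 of 214 were called, or 2.34%. In these groups sequence linked to the disrupted gene and the loss of Nfkb2 itself cannot be told apart. Tcf7 (chr11:52252371-52283014) is on another chromosome.

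**Figure D4:**
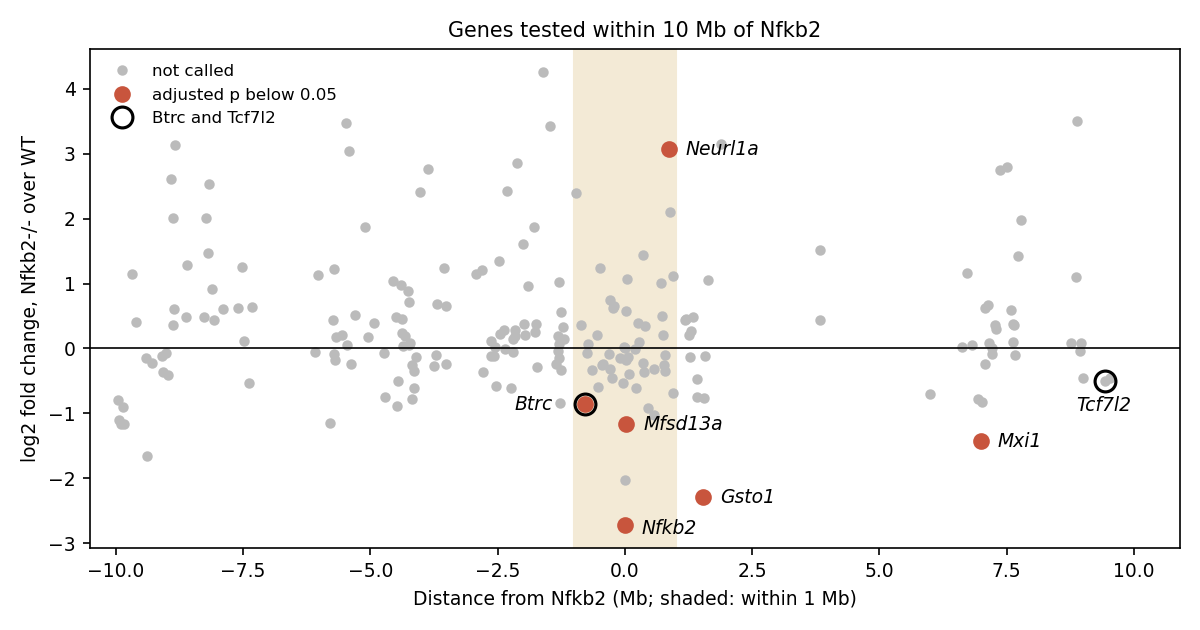
Log2 fold change of Nfkb2-/- over WT (vertical axis) against the distance from Nfkb2 in Mb (horizontal axis) for the genes tested within 10 Mb, with called genes in red, the window of 1 Mb shaded and Btrc and Tcf7l2 ringed in black. Btrc (log2 fold change -0.85) lies inside the shaded window and Tcf7l2 (-0.51) near the right edge.

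The 250 bases before RefSeq start sites (GRCm38.p6) were searched on both strands for the TCF motif CTTTGAT and for the loose κB motif GGGNNNNNCC, and 13 start sites of 7 genes were listed in the table used. Axin1 and Btrc were not listed, and Apc was not searched. The TCF motif was in 0 of the 13 windows, against 3.21% of all 32851 windows, a share at which 13 windows are too few to show an absence. The κB motif was in 8 of the 13, those of 5 genes, against 45.8% of all windows, so that its presence is common. Windows of a gene can overlap, and the same Lef1 match, at -191 and -217 of overlapping windows, was counted for both. The outermost start site listed for Tcf7 may lie downstream of the gene's first one, so its windows may not be promoter sequence and are not shown. The window before the outermost start site of Tcf7l2 is shown because its 6 matches to the κB motif were the most among the 13. G and C make up 72.8% of this window, and the motif fixes only G and C letters. Capitals mark bases in a match, and several matches overlap. The letters are a description of this window, and binding was not tested.
Tcf7l2 (chr19:55741560-55741809, plus strand): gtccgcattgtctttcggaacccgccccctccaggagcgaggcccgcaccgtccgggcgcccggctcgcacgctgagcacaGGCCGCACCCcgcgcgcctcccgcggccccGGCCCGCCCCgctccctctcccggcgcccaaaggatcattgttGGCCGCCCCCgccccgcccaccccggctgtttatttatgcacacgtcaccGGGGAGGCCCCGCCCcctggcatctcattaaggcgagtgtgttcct

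Partners of the destruction complex were compared as a list of 22 genes, among them the casein kinases, phosphatase PP2A subunits, tankyrases and Dishevelled proteins. All 22 were tested, 0 were called by edgeR (1.14% of all genes), and 2 had an unadjusted p under 0.05 (17.1% of all genes): Csnk1e and Frat1, both lower. DESeq2 called Frat1 alone and limma voom called 0. Frat1 lies 4.47 Mb from Nfkb2 on the same chromosome, so the limit given above on linked sequence applies to it too. The median log2 fold change of the list was -0.12. The 3 most abundant per length were Csnk1a1, the kinase that primes β-catenin for GSK3β, Ppp2r1a, the scaffold subunit of PP2A, and Csnk2b, the regulatory subunit of casein kinase 2. Csnk1a1 stood at 487, 482 and 509 CPM in WT and 340, 508 and 495 CPM in Nfkb2-/- BMDCs, where only Nfkb2-/- replicate 1 lay outside the WT range. Ppp2r1a stood at 151, 135 and 149 CPM against 124, 139 and 138 CPM, and the genotypes overlapped. Csnk2b stood at 72.8, 55.7 and 75.5 CPM against 97.6, 77.5 and 83.6 CPM, higher in each Nfkb2-/- library (log2 fold change 0.34, adjusted p = 0.378, edgeR).

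The 8 partners of the ubiquitin ligase included the SCF subunits Skp1a, Cul1 and Rbx1. None was called by edgeR, by DESeq2 or by limma voom, 0 had an unadjusted p under 0.05, and the median log2 fold change was 0.10. The most abundant per length were Nedd8, the modifier that activates cullins, Ube2r2, a ubiquitin-conjugating enzyme, and Skp1a, the adaptor that holds F-box proteins. Skp1a stood at 77.5, 77.2 and 102 CPM in WT and 67.6, 107 and 87.5 CPM in Nfkb2-/- BMDCs, Ube2r2 at 162, 144 and 232 against 152, 158 and 135 CPM, and Nedd8 at 52.5, 45.9 and 62.4 against 55.1, 64.3 and 61.4 CPM. The genotypes overlapped for all 3 genes.

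Nuclear partners of β-catenin and the TCF/LEF proteins were compared as a list of 25 genes. All 25 were tested, 0 were called by edgeR and 4 had an unadjusted p under 0.05, all lower (8.04% of all genes were lower at that p): Tbl1x, Bcl9, Hipk2 and Bcl9l. The median log2 fold change was -0.24, with 18 genes below 0 and 10 with every Nfkb2-/- library below every WT library. All 10 averaged 5 CPM or more, a level at which 17.7% of genes did so, against 12.0% of all genes tested. Bcl9 and Bcl9l, named here after their values were seen, encode the adaptors that join β-catenin to Pygopus. Bcl9 stood at 51.0, 31.5 and 52.7 CPM in WT and 22.4, 19.7 and 20.4 CPM in Nfkb2-/- BMDCs (log2 fold change -1.11, adjusted p = 0.0656, edgeR), and its groups did not overlap. Bcl9l stood at 56.4, 48.4 and 62.7 CPM against 39.5, 31.4 and 37.3 CPM, also without overlap (-0.63, adjusted p = 0.120, edgeR). DESeq2 called both and no other gene of the list, limma voom called 0, and 4 of the 15 alternatives called Bcl9.

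The 3 most abundant nuclear partners per length were Hipk2, a nuclear kinase, Tbl1x, a subunit of corepressor complexes that also binds β-catenin, and Aes, a short Groucho-family protein. Hipk2 stood at 587, 565 and 706 CPM in WT and 418, 503 and 393 CPM in Nfkb2-/- BMDCs, with every Nfkb2-/- library lower (log2 fold change -0.50, adjusted p = 0.209, edgeR). Tbl1x stood at 386, 325 and 436 CPM against 259, 300 and 295 CPM (-0.43, adjusted p = 0.253, edgeR). Aes stood at 119, 117 and 189 CPM against 177, 139 and 134 CPM, and the genotypes overlapped.

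Of 30 textbook targets of β-catenin, 18 were tested, and 0 were called by edgeR. Wisp1 was not matched to an ID by that name, so its counts were not examined. Notum, Sp5, Ascl2 and Dkk1 were among those that did not pass the filter of 50 counts, while the feedback inhibitors Rnf43 and Znrf3 did, at 6.89 to 12.6 and 2.66 to 9.01 CPM. Among those tested, 5 had an unadjusted p under 0.05 (17.1% of all genes), 2 higher (Ccnd1 and Ccnd2) and 3 lower (Znrf3, Jun and Vegfa). The median log2 fold change of the list was 0.59, beside 0.08 over all genes tested, with 12 genes above 0 and 6 below. Some of the 12 were near the floor and high only in Nfkb2-/- replicate 1, such as Nkd1 (1.08) and Apcdd1 (1.34). Without that library their log2 fold changes turned to -1.33 and -0.71. Lgr5, Tnfrsf19, Ephb2 and Ephb3, also above 0, reached the filter of 50 counts only through the counts of that library. The median of 0.59 and the 12 genes above 0 therefore rest in part on Nfkb2-/- replicate 1 and show no shift of the list. DESeq2, which called 11.3% of the genes it tested, called 4 (Ccnd1, Ccnd2, Jun and Vegfa). Limma voom, which called 2.23%, called 2 (Ccnd1 and Ccnd2). The 3 most abundant per length were Id2, an inhibitor of helix-loop-helix factors, the adhesion receptor Cd44 and the D-type cyclin Ccnd2. Ccnd2 stood at 37.6, 169 and 69.3 CPM in WT and at 623, 836 and 562 CPM in Nfkb2-/- BMDCs (log2 fold change 2.87, adjusted p = 0.0571, edgeR), without overlap, and 6 of the 15 alternatives called it. Id2 stood at 928, 731 and 1274 CPM against 543, 858 and 859 CPM, and Cd44 at 922, 972 and 872 CPM against 684, 1028 and 942 CPM, with overlapping genotypes in both.

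Markers of other cells were set beside these results, since in bulk RNA a lower share of a cell type and less RNA per cell cannot be told apart. The 10 markers of mature dendritic cells had a sum of 13191, 9884 and 19051 CPM in WT and 11400, 11559 and 10944 CPM in Nfkb2-/- BMDCs. The WT libraries had the same order as in Tcf7, with replicate 3 highest and replicate 2 lowest. The Nfkb2-/- libraries did not, since replicate 2 had the highest sum and the lowest Tcf7. Of these 10 markers, 8 had a log2 fold change below 0 (median -0.83), Il12b was called lower and Ccl17 was called higher. By edgeR 6 were lower at an unadjusted p under 0.05, as were 8.04% of all genes, and 1 was higher. In 5 every Nfkb2-/- library lay below every WT library, against 17.7% of genes that averaged 5 CPM or more, and 1 lay above. DESeq2 called 4 lower and 1 higher. Of the 11 dendritic cell markers, Itgax, which encodes CD11c, was called higher (160, 277 and 123 against 745, 769 and 716 CPM) and none was called lower. At an unadjusted p under 0.05 by edgeR (17.1% of all genes), 3 of the 11 were higher and 2 lower, Zbtb46 and Ccr7. Their part in the lower Tcf7 and Btrc was not tested.

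The 12 markers of T and innate lymphoid cells were examined beside Tcf7 and Lef1. Cd3d, Trbc1 and Trbc2, which define T cells, did not pass the filter of 50 counts, and Cd3e, Cd3g and Cd4 lay at or below 1.21 CPM in every library. The list's sum of 324 to 539 CPM in WT and 211 to 282 CPM in Nfkb2-/- BMDCs was almost wholly Il7r, at 456, 318 and 529 against 194, 275 and 263 CPM. Like Tcf7, Il7r was lower in every Nfkb2-/- library. The log2 fold change of Il7r was -0.83 (adjusted p = 0.143, edgeR), and DESeq2 called it. Of the 9 markers tested, 7 had a log2 fold change above 0, among them Thy1, which was at most 0.277 CPM in WT and stood at 3.01, 1.38 and 1.01 CPM in Nfkb2-/- BMDCs (2.95, adjusted p = 0.0708, edgeR) and was called by DESeq2. The part of such cells in the level of Tcf7 was not tested. The sum over 6 B cell markers was 1.17 to 1.66 CPM in WT and 7.92, 1.19 and 1.07 CPM in Nfkb2-/- replicates 1 to 3. Nfkb2-/- replicate 1 also held the highest Axin2 and Lef1 and the most IDs with at least 1 count. Genes near the floor outside the B cell list were high in it as well, such as Ephb2 (4.37 CPM against at most 0.688 CPM elsewhere).

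The remaining marker lists did not separate the genotypes by their sums, except for the progenitor markers. Macrophage markers summed to 882, 1024 and 157 CPM in WT and 629, 619 and 765 CPM in Nfkb2-/- BMDCs, and no gene of the list was called. Progenitor markers summed to 436, 260 and 585 CPM in WT and 193, 219 and 205 CPM in Nfkb2-/- BMDCs, a sum held mostly by Sox4 (369, 175 and 517 against 86.1, 106 and 87.5 CPM), while 5 of the 7 genes had a log2 fold change above 0. None was called by edgeR, DESeq2 called Sox4 lower and Cd34 and Gata2 higher, and limma voom called Sox4 lower and Cd34 higher. Granulocyte and mast cell markers summed to 75.1 to 164 against 112 to 120 CPM, with Cpa3 called lower. Plasmacytoid dendritic cell markers summed to 159 to 173 against 156 to 198 CPM, mostly Tcf4, and Siglech and Ly6d lay below 1 CPM. Stromal and epithelial markers summed to 15.0 to 69.2 against 19.5 to 39.9 CPM. The Y-linked genes Ddx3y, Uty, Eif2s3y and Kdm5d were expressed in all 6 libraries and Xist was below 1 CPM in both genotypes. Their sum with Xist was 620, 561 and 685 CPM in WT and 356, 614 and 663 CPM in Nfkb2-/- BMDCs, lowest in Nfkb2-/- replicate 1.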

How the data were processed

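RNA-seq libraries of unstimulated BMDCs were compared between 3 WT and 3 Nfkb2-/- samples, grouped by the genotype in their labels. The authors deposited raw counts of reads per Ensembl gene for each library, without normalization, and their joint table, with identical counts, was not used. The submitters' processing notes name HISAT2 and GRCm38/mm10. The counting tool, the annotation and the use of strand are not given in the sources used here. Poly(A) RNA was sequenced, at 29863927 to 55623068 counts per library. Counting error matters mainly near the floor, where 3 counts are 0.0539 to 0.100 CPM.

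Testing was limited to genes that reached 50 counts in total and had a name in GENCODE M21. A total of 4675 IDs had no name there and held 1.01% to 1.75% of a library's counts. Both filters follow the rules in the study's methods, but names came from GENCODE M21, so the genes kept may differ from the study's own list. The study used DESeq2 and names no covariate, and none was used here. Counts were normalized with TMM and compared with edgeR 4.0.16 (glmQLFit and glmQLFTest) in R 4.3.3, with Benjamini-Hochberg adjustment over all genes tested. The SE is the size of the log2 fold change over the root of F, and the 95% interval uses the t distribution of the fit. TPM divides CPM by the union of exons in GENCODE M21. Permutation tests over libraries were exact and two-sided. The fits were tested on simulated counts. Alternatives were DESeq2 1.42.0, limma 3.58.1 (voom), RLE size factors, total counts, 3 other filters, all IDs, a replicate block and each library left out.

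The 10 genes, the lists of partners, targets and markers and the tests were chosen with earlier results of these data known. Dvl1, Dvl2, Dvl3, Csnk2a2 and Csnk2b were in the partner list as genes shown by the study. Named are the 10 genes, Nfkb2, Aldh1a2, in each partner or target list the called genes and the 3 most abundant per length, and in each marker list its sum, its called genes and its defining genes near 0. Other genes named for missing a threshold, and examples of a list, were chosen after their values were seen.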

Additional observations from a re-analysis of the deposited data

How the results depend on the processing

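With 3 libraries per genotype the calls depended on single libraries. Against 248 genes called, DESeq2 called 1890, limma voom 488, edgeR with filterByExpr 397, with no filter beyond 1 count 1625 and with at least 10 counts in every library 459, and leaving out a library gave 0 to 1248. Of the 10 genes, 2 were called (Btrc and Tcf7), 1 with total counts in place of TMM (Tcf7), and 0 to 2 without a library. DESeq2 called Tcf7l2 as well. The replicate numbers did not pair the libraries: the correlations of same-numbered deviations were 0.262, 0.148 and 0.0224, and WT replicate 2 correlated more with Nfkb2-/- replicate 3 (0.164). With the replicate number as a block edgeR called 0 genes (3331 at an unadjusted p under 0.05), and 0 of the 10 genes and 0 near Nfkb2. The adjusted p was then 0.105 for Btrc and 0.0679 for Tcf7.

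The log2 fold change of Gsk3b turned to 0.0514 with total counts and ranged from -0.119 to 0.0308 without a library. Its share of the GSK3 sum, Nfkb2-/- minus WT, ranged from -1.15 to 5.05 percentage points without a library, and that of Axin1 in the Axin sum from -2.04 to 0.0641 points. No other gene of the 10 changed direction. The destruction complex partners had 1 gene called by DESeq2, the nuclear partners 2 by DESeq2, 1 with no filter beyond 1 count, 1 with at least 10 counts in every library and 0 to 1 without a library, and the Wnt targets 4 by DESeq2, 2 by limma voom, 1 with filterByExpr, 4 with no filter, 1 with at least 10 counts and 0 to 2 without a library. Within 1 Mb of Nfkb2, 3 genes were called, 9 by DESeq2, 5 by limma voom, 1 with total counts, 5 with filterByExpr, 6 with no filter, 5 with at least 10 counts and 0 to 7 without a library. This last comparison and the next were added after seeing the data. Without any library in turn, 6 to 7 of the 10 genes were lower without overlap. The median of all genes was 0.08 on the log2 scale, 0.17 with total counts and 0.60 with no filter. Axin2 gave no value without Nfkb2-/- replicate 1, with filterByExpr and with at least 10 counts, and depth limits what Axin2 and Lef1 can show.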
